A study of Arabidopsis thaliana with 12 samples.

Results

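Wounded Arabidopsis thaliana rosettes kept in the light were compared with wounded rosettes kept in the dark, across 13567 of the 22810 probe sets of an Affymetrix array. These are the probe sets, other than the 64 controls of the manufacturer, that reached a log2 value of 4 on 3 or more of the study's 12 arrays. The light wounded group held 3 arrays from plants acclimatised for 30 min at 22 °C in light of 250 µmol m-2 s-1, wounded across the leaf blades with a metal haemostat, and collected after 60 min more in that light. The dark wounded group held 3 arrays from plants treated alike but acclimatised, wounded under a safelight and collected in the dark. The group of dark wounded replicate 2 rests on its title and source name, as its treatment description holds only a short code. That description gives no acclimatisation time, light level or temperature, so the conditions above are those described for the other dark wounded arrays. Intact rosettes in the light and intact rosettes in the dark, with 3 arrays each and no wounding, serve as a comparison. All 4 groups came from plants grown under alternating light and dark, and the ecotype and the time of day are not given in the sources used here. Each array carried 1 extract from 15 to 17 pooled plants, and each of the 3 replicate experiments held all 4 treatments. Since no rosettes were sampled ahead of the move to light or dark, a transcript higher in the light may have risen in the light or fallen in the dark. Because the extracts are of whole rosettes, fewer cells of a type and less RNA per cell cannot be told apart.

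As background, a leaf moved from light to darkness loses photosynthetic sugar supply and the light that its photoreceptors, the phytochromes and cryptochromes, perceive. Plant cells answer low energy through the SnRK1 kinase, which favours the breakdown of amino acids, lipids and cell constituents over growth. Crushing a leaf sets off calcium and jasmonate signalling within minutes. The comparison asks how the transcripts of a freshly wounded leaf differ with the light it stands in.

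In wounded rosettes 3922 of 13567 probe sets (28.9%) differed between light and dark, at a limma adjusted p under 0.05. Higher in the light were 1926 (14.2%) and lower were 1996 (14.7%). The fit gave each of the 3 experiments a level of its own (the replicate block). Without the replicate number as a block 1666 were called (12.3%), 660 higher (4.86%) and 1006 lower (7.42%), all of them within the 3922. At least 2-fold differences were found for 1139 (8.4%), of which 490 were higher and 649 lower. At least 4-fold differences were more uneven in number, with 68 higher and 140 lower, and at least 8-fold differences numbered 14 and 29. The median size of a called change was 0.73 on the log2 scale, while the median over all tested probe sets was 0.01. The light and dark arrays did not overlap for 3046 of the called and for 4540 (33.5%) of all tested probe sets. Of the called probe sets, 3909 had the same sign in all 3 experiments (99.7%, against 62.2% of all tested). Their median size was 0.65 in experiment 1, 0.78 in experiment 2 and 0.77 in experiment 3. A single gene was given by the annotation for 7275 of the tested probe sets, which stand for 7200 genes. Of these genes, 950 were higher in the light (13.2%) and 1105 lower (15.3%).

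**Figure D1:**
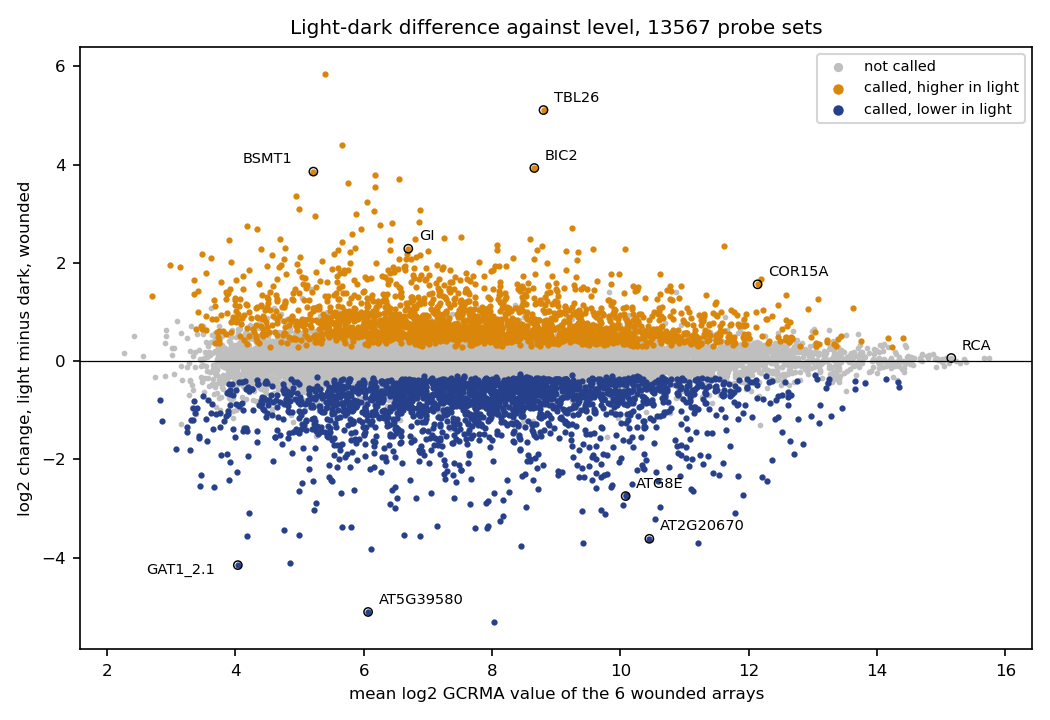
Each point is 1 of the 13567 tested probe sets, with its mean log2 value over the 6 wounded arrays on the x axis and its log2 change, light minus dark, on the y axis. Orange points (1926) were called higher and blue points (1996) lower in the light; named genes are circled. The most extreme point on either side is a probe set that the annotation does not pair with 1 gene, and the changes narrow toward the top of the scale, where RCA lies at 0.06.

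The share of called probe sets differed with brightness. Between log2 8 and 10, 577 of 3868 probe sets were higher and 638 lower in the light (31.4% called), and above log2 12 only 42 and 47 of 592 (15.0%). The median size of the called changes was 1.12 below log2 4 and 0.53 above log2 12. The highest value in the table was 15.85.

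The 15 largest rises and 15 largest falls were taken only from called genes whose light and dark wounded arrays did not overlap. Their lack of overlap is thus a condition of the choice and no separate result. Among named genes, the transcript with the largest rise in the light was TBL26, of a family that acetylates cell wall polysaccharides. Its log2 values were 11.01, 11.92 and 11.14 in light wounded rosettes, against 7.43, 5.88 and 5.43 in dark wounded rosettes. The log2 change was 5.11 ± 0.53 (SE, limma adjusted p = 0.000219), or 34.5-fold. BIC2, an inhibitor of the blue-light receptors called cryptochromes, had 10.13, 11.03 and 10.71 in light wounded rosettes, against 7.01, 7.1 and 5.97 in dark wounded rosettes (log2 change 3.93 ± 0.33, 15.2-fold). Its relative BIC1 had 8.11, 8.67 and 8.45 in light wounded rosettes, against 5.18, 5.38 and 5.48 in dark wounded rosettes (log2 change 3.07 ± 0.37, 8.38-fold). The changes of these inhibitors in the 3 experiments lay between 3.13 and 4.74 for BIC2 and between 2.93 and 3.29 for BIC1. AT1G06000, which encodes the flavonol rhamnosyltransferase UGT89C1, had 10.72, 10.45 and 10.63 in light wounded rosettes, against 8.53, 7.36 and 7.81 in dark wounded rosettes (log2 change 2.7 ± 0.22, 6.51-fold). AT2G44940, an AP2/ERF family transcription factor, had 7.9, 9.13 and 7.18 in light wounded rosettes, against 4.53, 4.53 and 3.79 in dark wounded rosettes (log2 change 3.78 ± 0.24, 13.8-fold). AT2G15020 had 7.84, 8.72 and 8.69 in light wounded rosettes, against 4.08, 5.3 and 4.72 in dark wounded rosettes (log2 change 3.71 ± 0.25, 13.1-fold). These 2 transcripts were near the brightness threshold of log2 4 in the dark and clearly above it in the light.

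For 6 of the 15 largest rises the dark mean lay below log2 4, so their fold is given as a lower bound against that threshold. AT2G27420, a cysteine protease of the papain family, had 6.77, 7.52 and 9.28 in light wounded rosettes, against 4.51, 2.62 and 3.24 in dark wounded rosettes, or at least 14.5-fold. BSMT1, a methyltransferase that makes volatile methyl salicylate and methyl benzoate, had 6.45, 8.66 and 6.32 in light wounded rosettes, against 2.92, 2.52 and 4.42 in dark wounded rosettes, or at least 8.84-fold. CSLA01, of a mannan synthase family, had 6.2, 7.5 and 5.92 in light wounded rosettes, against 4.33, 2.12 and 3.91 in dark wounded rosettes, or at least 5.82-fold. For all 3 genes the arrays within a group differed widely. Leaving out arrays or experiments moved the fitted log2 changes between 3.57 and 5.46 for AT2G27420, between 2.71 and 4.84 for BSMT1 and between 1.94 and 3.7 for CSLA01, all of them still called. The others were AT5G42760 (at least 6.14-fold), AT5G15240 of an amino acid transporter family (at least 6.57-fold) and AT1G23205 (at least 2.94-fold). AT1G23205 passed the brightness filter only through light arrays, the side where it was high. AT3G15310, which RefSeq lists as a pseudogene, AT1G76240 and AT5G01790 completed the 15, with log2 changes of 3.06 ± 0.38, 2.81 ± 0.26 and 2.58 ± 0.25. Over all 15, the limma adjusted p ran between 2.23e-05 and 0.00804, and all 15 were also called without the replicate block. The 15 were chosen among called genes, so this range of p is no separate support for them.

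The named transcript with the largest fall was AT5G39580, a class III peroxidase. Its log2 values were 2.49, 3.24 and 4.82 in light wounded rosettes, against 8.17, 8.22 and 9.48 in dark wounded rosettes, so that it was bright on every dark array and below log2 4 on 2 of the 3 light arrays (at least 24.6-fold lower, log2 change -5.11 ± 0.67, limma adjusted p = 0.000664). GAT1_2.1, of the glutamine amidotransferase family, had 1.98, 1.96 and 1.95 in light wounded rosettes, against 5.41, 5.23 and 7.7 in dark wounded rosettes (at least 4.33-fold lower). Its light arrays all lay near the floor of the values, and GAT1_2.1 passed the brightness filter only through dark arrays, the side where it was high. AT2G20670 was among the brightest transcripts that fell, with 8.99, 8.13 and 8.81 in light wounded rosettes, against 12.08, 11.99 and 12.71 in dark wounded rosettes (log2 change -3.62 ± 0.23, 12.3-fold lower). AT3G20340 had 4.2, 4.84 and 3.59 in light wounded rosettes, against 7.33, 7.95 and 8.81 in dark wounded rosettes (log2 change -3.82 ± 0.55). AT1G54740 had 6.1, 6.06 and 6.62 in light wounded rosettes, against 9.4, 9.39 and 10.07 in dark wounded rosettes (log2 change -3.36 ± 0.13). The changes of AT1G54740 in the 3 experiments, -3.29, -3.33 and -3.45, were close to each other, while those of AT3G20340, -3.14, -3.1 and -5.22, were not.

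AT3G15630 fell to 9.29, 9.0 and 9.12 in light wounded rosettes, against 11.71, 12.03 and 12.56 in dark wounded rosettes (log2 change -2.96 ± 0.38). AT4G27450, which belongs with SEN5 to a family of proteins with YGL and LRDR motifs, had 8.25, 8.82 and 8.67 in light wounded rosettes, against 10.89, 11.68 and 11.94 in dark wounded rosettes (log2 change -2.92 ± 0.15). Both were abundant in the dark. AT3G62550, of the universal stress protein family, had 6.16, 6.69 and 6.62 in light wounded rosettes, against 9.37, 10.79 and 9.1 in dark wounded rosettes (log2 change -3.26 ± 0.25). AT3G23880, an F-box protein and so a candidate substrate receptor of a ubiquitin ligase, was at least 6.71-fold lower, and SIS, a serine-rich protein named for its induction by salt, at least 10.2-fold lower, since both had light means below log2 4. The other falls among the 15 were AT2G31945 (log2 change -3.57 ± 0.5), AT3G49790 (-3.36 ± 0.2), AT3G07350 (-2.96 ± 0.19), AT5G08350, a GRAM domain protein (-2.9 ± 0.19), and ATG8E, which is described with its family. Adjusted p-values of the 15 falls ran between 7.23e-06 and 0.00128 in limma, and all 15 were also called without the replicate block. As the 15 were chosen among called genes, these p-values are no separate support for them.

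**Figure D2:**
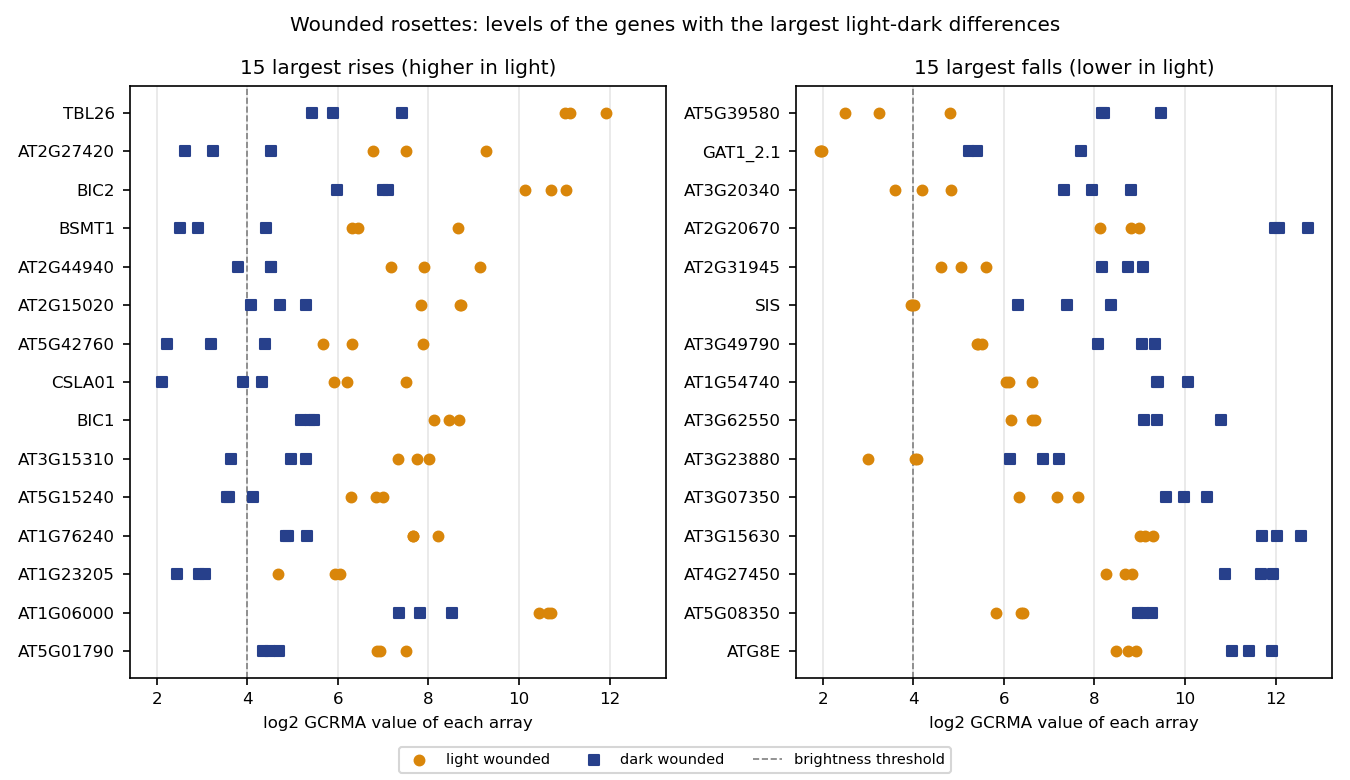
Log2 GCRMA values of the 3 light wounded arrays (orange circles) and the 3 dark wounded arrays (blue squares) for the 15 largest rises (left) and the 15 largest falls (right) among named genes; the dashed line is the brightness threshold of log2 4. The naming rule required that the groups not overlap, and symbols left of the dashed line mark levels too dim for an exact fold.

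Of 427 loci in 27 lists of pathways and cell markers, 89 list entries had a tested probe set with 1 gene, in 21 lists. Of these 89 members, 38 were called (21 without the replicate block), against 28.9% of all tested probe sets (12.3% without the block). Most lists are therefore described by a few members only. The JAZ repressor, ethylene, salicylate, nitrate and sulfate, reactive oxygen and heat shock, and shoot apex and flower lists had no tested member and are not analysed here.

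Among light signalling genes, 3 of 4 tested members were higher in the light (2 without the replicate block) and none was lower, against 14.2% of all probe sets called higher. Besides BIC1 and BIC2 this was HYH, a bZIP factor close to HY5 that promotes light-dependent development, with 8.14, 8.53 and 9.11 in light wounded rosettes, against 7.14, 7.2 and 7.53 in dark wounded rosettes. The change of HYH was 1.3 ± 0.26 (2.47-fold, limma adjusted p = 0.00551), and it was not called without the replicate block (adjusted p = 0.0780). FHL, a carrier of phytochrome A into the nucleus, was close to the brightness threshold, with 2.63, 3.3 and 2.63 in the light, against 2.7, 4.96 and 4.1 in the dark. Its change of -1.07 ± 0.42 was not called (limma adjusted p = 0.0834). Of 21 circadian clock genes only GIGANTEA (GI), which links the clock to flowering and to the stability of clock proteins, could be tested. GI had 7.5, 7.77 and 8.24 in light wounded rosettes, against 5.83, 5.64 and 5.18 in dark wounded rosettes, a change of 2.29 ± 0.25 (4.88-fold, limma adjusted p = 0.000300). The groups did not overlap, and the change was 1.66, 2.13 and 3.06 in the 3 experiments.

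All 7 tested genes known for their rise in darkness or sugar starvation were lower in the light, 5 of them also without the replicate block, against 14.7% of all probe sets that were called lower. Their median change was -1.57, and that of all tested probe sets 0.01. AKINBETA1, a regulatory subunit of the SnRK1 energy-sensing kinase, had 8.16, 8.55 and 8.29 in light wounded rosettes, against 10.55, 11.23 and 10.99 in dark wounded rosettes (log2 change -2.59 ± 0.17, 6.01-fold lower). MCCA and IVD encode mitochondrial enzymes of leucine breakdown. MCCA had 7.48, 7.12 and 7.31 in light wounded rosettes, against 9.66, 9.96 and 9.29 in dark wounded rosettes (log2 change -2.33 ± 0.18), and IVD had 6.04, 6.65 and 6.54 in light wounded rosettes, against 7.59, 8.29 and 8.04 in dark wounded rosettes (log2 change -1.57 ± 0.14). The groups were apart for all 3 genes, and the limma adjusted p was 2.41e-05, 4.71e-05 and 0.000103. SEN5, named for senescence, was bright in the dark, with 11.9, 11.57 and 11.78 in light wounded rosettes, against 13.59, 13.55 and 13.82 in dark wounded rosettes (log2 change -1.9 ± 0.36, limma adjusted p = 0.00447). The remaining members were bZIP53, a factor that activates amino acid catabolism genes (-1.41 ± 0.19), EXO, a cell wall protein that promotes growth (-1.11 ± 0.3), and PPDK, which makes phosphoenolpyruvate from pyruvate (-0.46 ± 0.13). EXO and PPDK were not called without the block, and the arrays of PPDK overlapped between groups.

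ATG8 is the small ubiquitin-like protein that is attached to the membrane of the autophagosome, and the plant has 9 genes for it, all of which were tested here. All 9 had negative changes, between -2.75 and -0.38, with a median of -0.53, and 7 were called lower in the light (3 without the replicate block), against 14.7% of all probe sets called lower (7.42% without the block). ATG8E stood out in size, with 8.47, 8.92 and 8.73 in light wounded rosettes, against 11.03, 11.91 and 11.42 in dark wounded rosettes, a change of -2.75 ± 0.18 (6.72-fold lower, limma adjusted p = 2.42e-05). ATG8H had 6.85, 7.53 and 7.16 in light wounded rosettes, against 7.98, 8.51 and 8.92 in dark wounded rosettes (log2 change -1.29 ± 0.2), and the abundant ATG8F had 10.72, 11.11 and 11.01 in light wounded rosettes, against 11.69, 12.42 and 12.02 in dark wounded rosettes (log2 change -1.1 ± 0.1). These 3 did not overlap between groups and were called with and without the block. ATG8D changed by -0.68 ± 0.14 (limma adjusted p = 0.00620, 0.154 without the block). ATG8A, ATG8I and ATG8C had changes of -0.5 ± 0.12, -0.53 ± 0.13 and -0.44 ± 0.13, and none of these was called without the block. ATG8G (-0.49 ± 0.22) and ATG8B (-0.38 ± 0.17), the dimmest members, were not called. Near-identical ATG8 copies could share hybridisation on probe sets of this kind, which was not tested.

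Flavonoids are phenolic pigments that absorb ultraviolet light, and their genes were mostly higher in the light. Of 5 tested members 4 were called higher (2 without the replicate block) and none lower, against 14.2% of all probe sets called higher. UGT78D1, the flavonol 3-O-rhamnosyltransferase, had 11.35, 10.97 and 10.78 in light wounded rosettes, against 10.04, 9.57 and 8.95 in dark wounded rosettes (log2 change 1.51 ± 0.19, limma adjusted p = 0.000575). UGT78D2, which adds glucose to flavonols and anthocyanidins, had 9.29, 8.99 and 9.82 in light wounded rosettes, against 8.43, 7.73 and 8.2 in dark wounded rosettes (log2 change 1.25 ± 0.15, limma adjusted p = 0.000497). CHIL, a non-catalytic helper of chalcone synthase, had a change of 1.11 ± 0.33 and UGT75C1, an anthocyanin 5-O-glucosyltransferase, of 0.72 ± 0.19. The arrays of CHIL and UGT75C1 overlapped between groups, and neither was called without the block. DFR, an enzyme of the anthocyanin branch, was not called (-0.21 ± 0.21, 95% interval -0.68 to 0.26), with 8.17, 7.7 and 6.19 in the light, against 8.03, 7.78 and 6.88 in the dark. UGT89C1, named above, is a flavonol glycosyltransferase as well but was not in the list.

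In the list of starch, sucrose and sugar transport, 3 of 5 tested members were higher in the light (1 without the replicate block), against 14.2% of all probe sets called higher (4.86% without the block). APL3, a large subunit of the enzyme that makes ADP-glucose for starch, had 8.22, 8.43 and 7.02 in light wounded rosettes, against 6.79, 7.06 and 5.53 in dark wounded rosettes. The groups overlapped, with experiment 3 low in both groups, and the difference was 1.43, 1.37 and 1.49 within the 3 experiments (log2 change 1.43 ± 0.17, limma adjusted p = 0.000420, and 0.0929 without the block). The sugar transporters SWEET1 and SWEET17 changed by 0.7 ± 0.19 and 0.67 ± 0.13, and SWEET17 was the member also called without the block. SWEET11, which exports sucrose from leaf cells toward the phloem, had a change of -0.02 ± 0.23 (95% interval -0.53 to 0.48), and SWEET16 of 0.74 ± 0.38 (-0.11 to 1.59), and neither was called. Counting SWEET genes outside the list, 7 were tested, with changes between -0.43 and 1.07. Of these 7, 2 were higher and 1 lower in the light (1 and 0 without the block), against 14.2% and 14.7% of all probe sets (4.86% and 7.42% without the block).

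**Figure D3:**
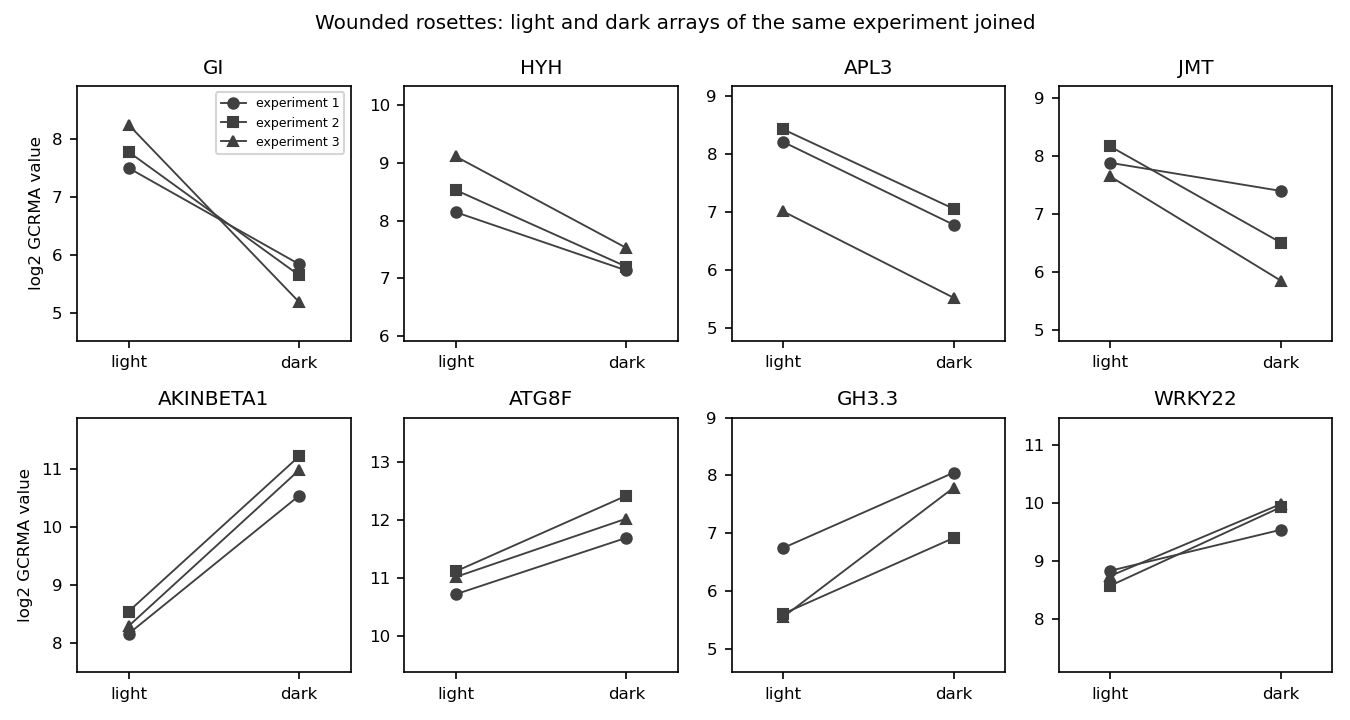
Log2 GCRMA values of 8 named genes in wounded rosettes, with the light array (left) and the dark array (right) of the same replicate experiment joined by a line; every panel spans the same number of log2 units. The lines of APL3 run nearly in parallel although its light values (7.02 to 8.43) overlap its dark values (5.53 to 7.06), whereas those of JMT differ in slope.

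Of 3 tested genes of abscisate, cold and dehydration 2 were higher in the light (2 without the replicate block), against 14.2% of all probe sets (4.86% without the block). They were COR15A and COR15B, which encode chloroplast proteins that protect membranes during freezing, and 1 further member was not called. COR15A had 12.97, 13.05 and 12.74 in light wounded rosettes, against 11.45, 11.33 and 11.3 in dark wounded rosettes (log2 change 1.56 ± 0.13, 2.95-fold, limma adjusted p = 5.55e-05). COR15B had 9.63, 9.31 and 9.94 in light wounded rosettes, against 8.29, 8.07 and 7.95 in dark wounded rosettes (log2 change 1.53 ± 0.25, limma adjusted p = 0.00229). Neither overlapped between groups, and the 2 neighbouring genes are similar in sequence, so shared hybridisation cannot be told apart from shared change. The dehydrin COR47 had a change of -0.32 ± 0.14 (limma adjusted p = 0.109). Of 10 genes of early auxin response 2 could be tested, and both were lower in the light, against 14.7% of all probe sets (7.42% without the block). WES1 (GH3.5) and GH3.3 encode enzymes that join auxin to amino acids. WES1 had 4.88, 4.21 and 3.82 in light wounded rosettes, against 6.78, 7.62 and 6.56 in dark wounded rosettes (log2 change -2.68 ± 0.29, 6.42-fold lower), and GH3.3 had 6.75, 5.61 and 5.55 in light wounded rosettes, against 8.05, 6.92 and 7.79 in dark wounded rosettes (log2 change -1.62 ± 0.27). Both were apart between groups and called with and without the block.

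Jasmonate genes were measured in 3 lists, in which 1 of 1, 1 of 4 and 2 of 6 tested members were higher in the light and none was lower, against 14.2% and 14.7% of all probe sets. OPCL1, a CoA ligase of jasmonate biosynthesis, had 12.87, 13.07 and 12.15 in light wounded rosettes, against 12.07, 12.41 and 11.05 in dark wounded rosettes. Its change of 0.85 ± 0.28 had a limma adjusted p of 0.0443, and its groups overlapped. JMT, which methylates jasmonic acid to the volatile methyl jasmonate, had 7.88, 8.16 and 7.65 in light wounded rosettes, against 7.39, 6.5 and 5.85 in dark wounded rosettes (log2 change 1.32 ± 0.28, limma adjusted p = 0.00807). OPCL1 and JMT were not called without the block (adjusted p = 0.275 and 0.0523). The jasmonate oxidases JOX2, JOX3 and JOX4, which inactivate the hormone, had changes of -0.08 ± 0.28, 0.34 ± 0.33 and 0.14 ± 0.33 and were not called. MYC4, a bHLH factor that acts with MYC2 and MYC3 in jasmonate responses, had 7.39, 8.05 and 7.62 in light wounded rosettes, against 6.46, 6.96 and 6.37 in dark wounded rosettes (log2 change 1.09 ± 0.12, limma adjusted p = 0.000253), and was called with and without the block. MYC3 (0.03 ± 0.16), the defensin PDF1.2 (-0.11 ± 0.24), GRX480 (0.31 ± 0.51) and ORA47 (-0.04 ± 0.37) were not called, and BSMT1 is described above. PDF1.2 varied more between experiments than between light and dark, with 10.89, 13.22 and 13.72 in the light, against 10.81, 13.55 and 13.78 in the dark.

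Of 8 tested rapid wound, touch and stress regulators 1 was called higher in the light and none lower, against 14.2% and 14.7% of all probe sets. The called member was CML39, a calmodulin-like calcium sensor. It had 8.83, 8.53 and 6.77 in light wounded rosettes, against 6.47, 5.03 and 5.16 in dark wounded rosettes (log2 change 2.49 ± 0.38, 5.62-fold, limma adjusted p = 0.00152), with no overlap. Its relatives CML37 and CML38 had changes of -0.05 ± 0.53 and -0.42 ± 0.53, with 95% intervals of -1.23 to 1.14 and -1.6 to 0.76. The zinc finger repressor STZ (-0.4 ± 0.42), the transporter DTX50 (0.5 ± 0.37) and the ubiquitin ligases PUB22 (-0.22 ± 0.34), PUB23 (-0.58 ± 0.25) and PUB24 (-0.48 ± 0.3) were not called. The intervals of these 7 genes are wide, and differences of around 2-fold, for CML37 in either direction, lie within some of them. Their SE uses the spread of all 12 arrays. For STZ the SD was 0.08 in light wounded and 0.13 in dark wounded rosettes, but 1.06 in dark intact ones. The light and dark wounded arrays of STZ, PUB23 and PUB24 did not overlap, as for 33.5% of all tested probe sets. Beyond the list, 6 genes whose symbol begins with CML were tested, with CML37 and CML38 but not CML39 among them. None was higher and 2 were lower in the light, against 14.2% and 14.7% of all probe sets. They were CML30 (-1.44 ± 0.29), also called without the block, and CML42 (-0.97 ± 0.22), not called without it. Of 3 tested WRKY factors of stress 1 was lower in the light and none higher, against 14.7% and 14.2% of all probe sets. This was WRKY22, with 8.83, 8.57 and 8.74 in light wounded rosettes, against 9.54, 9.93 and 9.98 in dark wounded rosettes (log2 change -1.1 ± 0.35, limma adjusted p = 0.0398, 0.0641 without the block). WRKY6 (-0.73 ± 0.36) and WRKY53 (0.1 ± 0.28) were not called. In the list of glucosinolate and tryptophan synthesis, IGPS, which makes the indole ring of tryptophan, changed by 0.88 ± 0.16 (limma adjusted p = 0.00421, 0.0589 without the block), and BCAT4 was not called (0.48 ± 0.23).

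None of 8 nuclear photosynthesis genes, 2 photorespiration genes and 6 chlorophyll synthesis genes was called, against 28.9% of all tested probe sets. Above log2 12, where most of the photosynthesis genes lie, the share called was 15.0%. The photosynthesis genes serve as the check of the labelled tissue, and all 8 were bright on every wounded array. Their defining members RCA, the activase of Rubisco, and PSAE-1, a photosystem I subunit, averaged 15.19 ± 0.06 and 14.83 ± 0.04 in light wounded rosettes, against 15.12 ± 0.04 and 14.77 ± 0.17 in dark wounded rosettes (SD, n = 3). The changes of the 8 ran between -0.17 and 0.17, and their 95% intervals lay within -0.38 and 0.48. Several of these genes lie near the top of the scale. HPR and GLYK of photorespiration had changes of -0.03 ± 0.11 and -0.31 ± 0.12. CHLM, a methyltransferase of chlorophyll synthesis, had 11.78, 11.57 and 11.72 in the light, against 12.1, 11.8 and 12.09 in the dark with no overlap, but its change of -0.3 ± 0.1 was not called (limma adjusted p = 0.0526). CHLP changed by 0.04 ± 0.1, and PORB, the light-dependent protochlorophyllide reductase, by -0.53 ± 0.23 (limma adjusted p = 0.120).

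The reference gene GAPC2 had a change of 0.08 ± 0.1 and was not called. Of 9 tested expansins, proteins that loosen cell walls, 2 were called higher and none lower, against 14.2% and 14.7% of all probe sets. They were EXPB3 (0.54 ± 0.18) and EXPB1 (0.41 ± 0.12), neither of them called without the block. The changes of the other 7 ran between -0.79 and 0.4. Markers of other tissues were few. The root marker PYK10 had 9.33, 8.25 and 8.51 in light wounded rosettes, against 8.66, 6.98 and 8.34 in dark wounded rosettes and was not called (0.7 ± 0.36), the guard cell factor FAMA had a change of 0.4 ± 0.17 (limma adjusted p = 0.108), and the shoot apex gene CLV3 lay at the floor, with means of 2.05 and 2.03. The control probe set of 25S ribosomal RNA averaged 7.36 ± 1.06 in light wounded and 7.57 ± 0.77 in dark wounded rosettes (SD, n = 3). Control probe sets for the 3 prime end exceeded those for the 5 prime end by 4.94 ± 0.13 and 4.72 ± 0.15 for actin in these groups. For GAPDH the excess was 1.68 ± 0.12 and 1.63 ± 0.06.

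**Figure D4:**
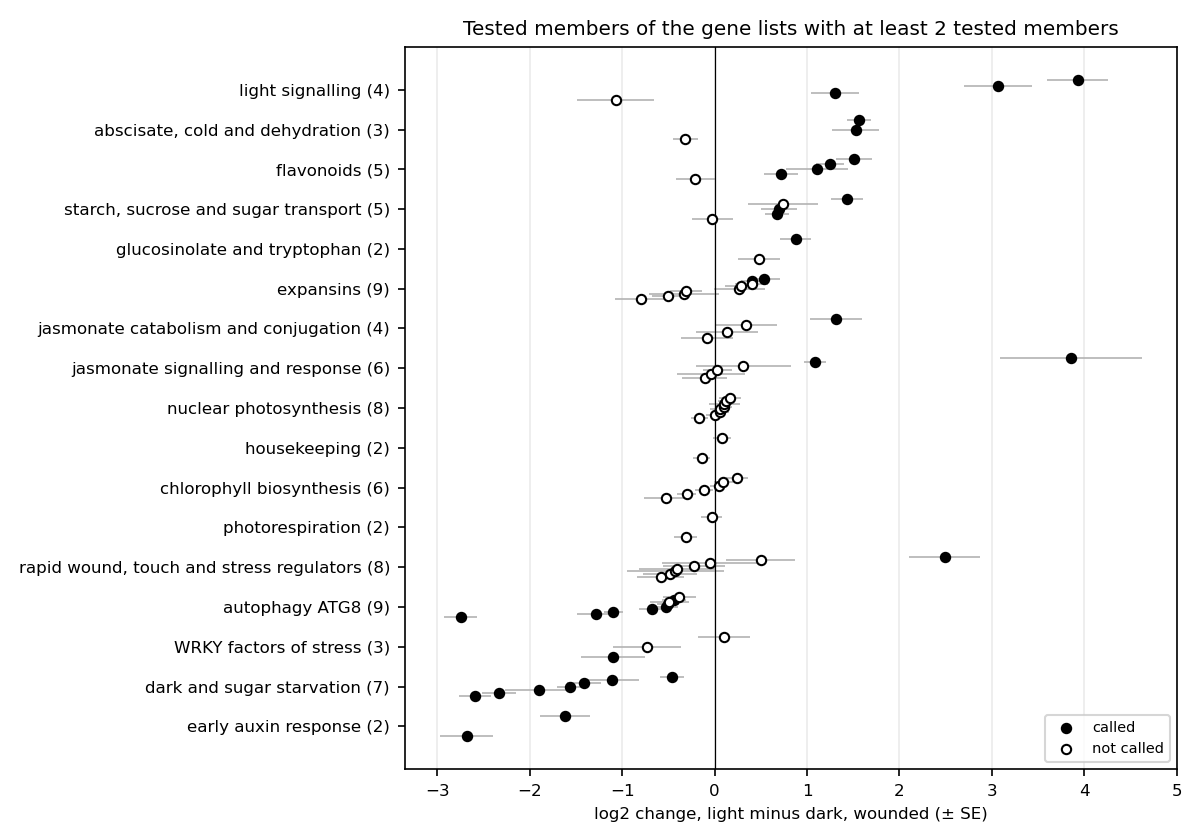
Log2 change, light minus dark, in wounded rosettes for every tested member of each list that has more than 1, ordered by the median of the list. Bars are the SE from limma, filled points were called and open points were not, and the number of tested members stands in brackets. All 7 dark and sugar starvation points lie below 0, while the 8 nuclear photosynthesis points lie between -0.17 and 0.17.

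Beyond the lists, 31 gene families, formed by the letters that begin the symbol, had 5 or more tested members each, 261 genes in all, of which 37 were higher and 54 lower in the light, against 14.2% of all tested probe sets called higher and 14.7% called lower (14 and 19 without the replicate block, against 4.86% and 7.42%). The share of family genes called higher was thus that of all probe sets. The members named here were chosen after their values were seen. The UGT glycosyltransferases, which attach sugars to hormones and phenolics, had calls in both directions, with 7 of 27 higher and 9 lower (3 and 3 without the replicate block), against 14.2% and 14.7% of all probe sets. The hydroxycinnamate glucosyltransferase UGT84A3 changed by 1.99 ± 0.19 and UGT71B6, which conjugates abscisic acid, by -1.96 ± 0.3. UGT76C1 and UGT76C2, which inactivate cytokinins, had changes of -0.76 ± 0.23 and -0.93 ± 0.13. The CYP stem held 2 higher and 4 lower of 14 genes (2 and 0 without the block), against 14.2% and 14.7%, so that the higher calls were no more frequent than among all probe sets. CYP71B26, a cytochrome P450, had 8.95, 9.13 and 8.28 in the light, against 6.34, 7.09 and 5.35 in the dark (log2 change 2.52 ± 0.17), and CYP71B35 was also higher (1.17 ± 0.27). Their relatives CYP71B22, CYP71B23, CYP71B24 and CYP71B29 were lower, with changes between -1.12 and -0.96. These P450 genes are close in sequence, and the stem also takes in the cyclophilins CYP59 and CYP71.

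The shares of all tested probe sets called higher (14.2%) and lower (14.7%) apply to each of the following families. Of 7 bZIP factors 4 were lower and 1 higher. BZIP61 changed by -1.56 ± 0.35, and BZIP17, a membrane-tethered stress factor, by 0.69 ± 0.14. Of 10 PRA proteins of vesicle traffic 5 were lower and none higher (1 lower without the block, against 7.42% of all probe sets), with PRA1.G2 at -1.17 ± 0.27. Of 11 ubiquitin-specific proteases (UBP), which remove ubiquitin, 3 were higher and none lower, with the called changes between 0.46 and 0.63, and none of them was called without the block. Xyloglucan-modifying enzymes of the cell wall (XTH) had 2 of 5 higher, XTH19 (1.01 ± 0.28) and XTH32 (1.07 ± 0.17), 1 of them without the block. Of 14 TBL genes 2 were higher and 2 lower (1 and 0 without the block), close to the shares of all probe sets, and next to TBL26 the changes ran only between -0.69 and 0.8. Of 5 glutamate receptor-like channels (GLR) 2 were higher and 1 lower (1 and 0 without the block). GLR3.3, which carries wound-evoked electrical signals together with GLR3.6, was higher in the light (0.84 ± 0.19, limma adjusted p = 0.0106, 0.0149 without the block). GLR2.7 was also higher (0.48 ± 0.12), and GLR2.8 was lower (-0.73 ± 0.2). GLR3.6 was not called (-0.03 ± 0.23), but its means of 4.37 in the light and 4.4 in the dark lay close to the brightness threshold, so a change could be missed. The 6 families with no call were PUB, GSTU, LSM, RPL, RPS and RALFL. The tested RPS and RPL genes all belong to the chloroplast genome, so ribosomal proteins of the cytosol are not covered. Changes of the 8 small-subunit genes ran between -0.47 and 0.19, and those of the 7 large-subunit genes between -0.22 and 0.04. The lowest, rps14, had means of 3.46 in the light and 3.93 in the dark, below the brightness threshold.

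Most probe sets called in wounded rosettes were also called in intact ones. In intact rosettes 5516 probe sets were called (40.7%), 3174 higher and 2342 lower in the light. That count fell to 3147 without the replicate block (1670 higher and 1477 lower), to 2869 without experiment 2, and to 1137 with the 25S control as a covariate (568 higher and 569 lower). The overlaps that follow are those of the fit with the block and no covariate. Higher in both were 1700 probe sets, which is 88.3% of those higher in wounded and 53.6% of those higher in intact rosettes. Lower in both were 1581, which is 79.2% of the wounded and 67.5% of the intact calls, and no probe set was called in opposite directions. Across the 13567 probe sets the changes correlated with r = 0.88 and rho = 0.86, a description across probe sets from the same 3 experiments and not from independent replicates. All 30 of the largest rises and falls named above were also called in intact rosettes. Of 1925 probe sets called at least 2-fold in either condition, the change was larger in intact rosettes for 1448 and larger in wounded ones for 477, with median sizes of 1.1 in wounded and 1.35 in intact rosettes. That imbalance was not tested over all of them together.

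The difference between the 2 light effects was tested for each probe set, as the change in wounded minus the change in intact rosettes. Only 5 of 13567 probe sets were called (0.0369%), 3 positive and 2 negative, and 1102 (8.12%) had an unadjusted p under 0.05 in limma, of which 408 were positive. Leaving out 1 array gave 1 to 41 calls, with 28 without light intact replicate 3 and 41 without dark intact replicate 1. Without the replicate block 2 were called, AT4G29610 and AT5G38700. AT4G29610, of the cytidine deaminase family, had 4.65, 4.83 and 4.51 in light wounded rosettes, against 2.57, 2.77 and 2.37 in dark wounded rosettes. In intact rosettes it averaged 2.42 ± 0.06 in the light and 2.4 ± 0.04 in the dark (SD, n = 3), so that it rose above log2 4 only in the light wounded group of these 4. AT5G38700 had 8.09, 8.11 and 8.25 in light wounded rosettes, against 6.24, 6.72 and 6.69 in dark wounded rosettes, while the intact groups averaged 2.81 ± 0.03 and 2.83 ± 0.02. It was thus bright in wounded rosettes only. With the intact arrays at the floor, a light effect there could not be read for either gene. AT4G29610 also passed the brightness filter only through its light wounded arrays. The fitted differences of these genes are therefore not taken as sizes.

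For EXPB1 the fitted light-dark change was smaller in wounded than in intact rosettes, which was not called without the block (limma adjusted p = 0.129). It averaged 4.54 ± 0.22 in light wounded and 4.13 ± 0.21 in dark wounded rosettes, and 6.54 ± 0.39 in light intact and 4.27 ± 0.23 in dark intact rosettes (SD, n = 3). The light-dark change was 0.41 ± 0.12 in wounded and 2.27 ± 0.12 in intact rosettes, a difference of -1.87 ± 0.17 (limma adjusted p = 0.00902). All groups of EXPB1 but light intact lay close to the brightness threshold of log2 4, so the size of this difference is uncertain. AT3G27540, of a glycosyltransferase family, averaged 8.42 ± 0.28 and 8.1 ± 0.22 in light and dark wounded rosettes, and 7.24 ± 0.2 and 5.3 ± 0.19 in light and dark intact rosettes. Its changes were 0.32 ± 0.14 and 1.94 ± 0.14, a difference of -1.63 ± 0.2 (limma adjusted p = 0.0364). A probe set that the annotation pairs with no gene had a change of -0.86 ± 0.13 in wounded and -2.55 ± 0.13 in intact rosettes, a difference of 1.68 ± 0.19 (limma adjusted p = 0.0217). Several genes had larger point differences that were not called, among them SEN5 (2.43 ± 0.51, adjusted p = 0.225) and WRKY22 (2.35 ± 0.49, adjusted p = 0.222). The SD of the intact arrays reached 1.16 for SEN5 in the light and 0.88 for WRKY22 in the dark. WRKY22 averaged 8.71 ± 0.13 and 9.82 ± 0.24 in light and dark wounded rosettes, against 4.43 ± 0.29 and 7.88 ± 0.88 in light and dark intact rosettes. CML39, whose change in intact rosettes was 0.81 ± 0.38, was not shown to differ either (1.68 ± 0.54, adjusted p = 0.404).

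The 25S control averaged 7.27 ± 0.33 in light intact and 9.62 ± 0.95 in dark intact rosettes (SD, n = 3), beside the means in wounded rosettes given above. With that control as a covariate none of the 5 interaction probe sets was called, and none was called when a whole replicate experiment was left out.

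**Figure D5:**
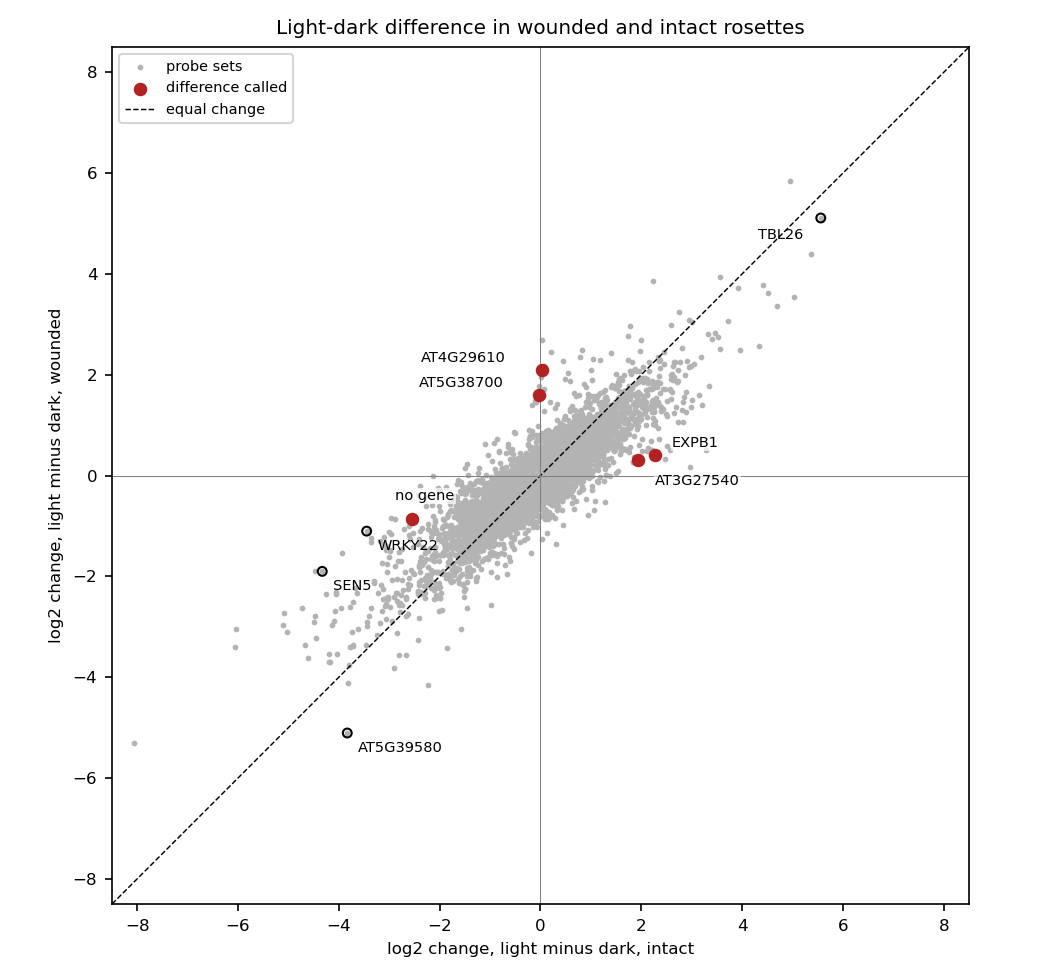
Log2 change, light minus dark, of each of the 13567 probe sets in intact rosettes (x axis) and in wounded rosettes (y axis); the dashed line marks equal change. Red points are the 5 probe sets whose changes differed in limma, and circled points are named genes that did not pass that test. Most points follow the line, and those far from 0 lie more often on the side of the larger change in intact rosettes (1448 of 1925).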

How the data were processed

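Total RNA of whole rosettes, labelled as biotinylated cRNA, was hybridised to 12 arrays. The deposited values are on the log2 scale and were made by the authors with GCRMA, per the submitters' processing notes, with no version given. They run between 1.46 and 15.85, array medians lie between 5.4 and 5.6, and no value is missing. Depth does not apply to arrays, and their number limits the precision (median SE of a change 0.15). No detection calls are used, so probe sets with log2 of at least 4 on at least 3 of 12 arrays were tested, which sets 9179 dim ones aside. Gene names come from probe sets with 1 annotated gene (7275 tested probe sets, 292 with several genes and 6000 with none). The symbols of 7254 matched a RefSeq locus. Of several probe sets for a gene the brightest was taken.

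Differences were fitted in limma 3.58.1 (R 4.3.3) on all 12 arrays with 1 mean per group and the replicate number as a block, two-sided, with empirical Bayes moderation (residual df 6, prior df 3.4). Benjamini-Hochberg adjustment ran over the 13567 probe sets, calls were made at an adjusted p under 0.05, and adjusted p-values in the text are of this kind. The replicate numbers pair the arrays, since the series description puts all 4 treatments in each of 3 experiments. After removing group means, same-numbered arrays (18 pairs) had r of 0.3 to 0.76, and the other 36 had r of -0.47 to -0.07. The script was tested on simulated data. Changes are light minus dark.

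The genes named are the 15 that rose most and the 15 that fell most, with 1 gene to the probe set and no overlap between groups. Each list adds its 4 most changed called members, or its 2 brightest if none was called, and the interaction adds its called probe sets. Further list members are named to complete their list, and 1 gene family is not reported here. The comparison, its lists and tests were chosen with earlier results of these data known. Promoter motifs were not searched, since no promoter sequences were used here. The alternatives tried were no block, the 6 wounded arrays only, median centring, quantile normalisation, no brightness filter or one of log2 6, trended robust moderation, the 25S control as a covariate, and leaving out arrays or experiments.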

Additional observations from a re-analysis of the deposited data

Results flagged for a closer look

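Limma's interaction test called 5 probe sets for a different effect of light in wounded and intact rosettes. The difference, as the log2 light-dark change in wounded minus that in intact rosettes, was 2.07 for AT4G29610, 1.62 for AT5G38700, 1.68 for a probe set with no annotated gene, -1.87 for EXPB1 and -1.63 for AT3G27540. AT4G29610 and AT5G38700 were called as well, but all their intact arrays lay below log2 4. A light effect could not be read there, so the fitted 2.07 and 1.62 are not taken as sizes of the difference. AT4G29610 also passed the brightness filter only through its light wounded arrays, the group in which it was high. Leaving out 1 array gave 1 to 41 interaction calls.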

How the results depend on the processing

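Among the processing alternatives, the count of calls in wounded rosettes moved most without the replicate block. Without the replicate block 1666 probe sets were called, 660 higher and 1006 lower, and 12 of the 58 named calls were lost (HYH, ATG8D, CHIL, UGT75C1, OPCL1, JMT, WRKY22, IGPS, APL3, SWEET1, EXPB3 and EXPB1). The other alternatives kept the count of calls between 3428 and 4058, and that of at least 2-fold calls between 990 and 1142 (900 without the block). Named calls lost numbered 5 with the 25S control as a covariate (CHIL, OPCL1, WRKY22, EXPB3 and EXPB1), 5 without the brightness filter (CHIL, OPCL1, WRKY22, SWEET1 and EXPB3), 1 with trended robust moderation (EXPB1) and 1 with the wounded arrays only (UGT75C1), and the cause was not tested. CHLM passed the threshold with either changed filter and with trended robust moderation. Centring the arrays moved the median over all probe sets to 0.036 (0.014 as reported). Leaving out arrays or experiments gave 1735 to 4078 calls (809 to 1980 higher, 926 to 2098 lower), 903 to 1236 of at least 2-fold, and medians of -0.0034 to 0.019. The count moved by over 1.5 times without dark wounded replicate 2 (2409) and without experiment 1 (2410), 2 (1735) or 3 (2258), which leave fewer arrays. Named calls lost in these ways numbered 0 to 9, among ATG8D, CHIL, EXPB1, EXPB3, IGPS, JMT, OPCL1, SWEET1, SWEET17, UGT75C1 and WRKY22. They moved the fold of 7 named genes by over 1.5 times, which are AT2G27420, BSMT1 and CSLA01 (given above) and, in log2, AT2G31945 (-4.2 to -2.99), AT3G20340 (-4.19 to -3.12), GAT1_2.1 (-4.6 to -3.35) and TBL26 (4.64 to 5.87). Intact calls numbered 3147 without the block, 1137 with the 25S covariate, and 5055 to 5603 in the other processing alternatives. Leaving out arrays or experiments gave 2869 to 5356.

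The 5 interaction calls were less stable. They numbered 2 without the block (none negative), 2 without the brightness filter (1 positive and 1 negative) and 0 with the 25S covariate (0 positive, 0 negative). Trended robust moderation gave 5 positive calls and quantile normalisation 1 negative call. Leaving out arrays or experiments gave 0 to 41 calls (positive 0 to 38, negative 0 to 12), with 28 without light intact replicate 3, 41 without dark intact replicate 1 and 0 without any whole experiment. The signs of all 5 were kept in every alternative run, and the cause of the lost calls was not tested. Signal over background limits the dim genes, whose folds are lower bounds, and 3 arrays a group limit the rest.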

Other observations

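Further families with members not yet described, named here after their values were seen, held calls. They are set against 14.2% of all tested probe sets called higher and 14.7% called lower (4.86% and 7.42% without the replicate block). Of 14 serine carboxypeptidase-like genes (SCPL) 4 were higher in the light and 1 lower (1 and 1 without the replicate block), from SCPL27 at 0.61 ± 0.11 to SCPL34 at -1.05 ± 0.22 on the log2 scale (limma SE). Of 10 beta-glucosidases (BGLU) 3 were higher and 2 lower (1 and 1 without the block), with BGLU47 at 1.69 ± 0.18 and BGLU16 at -0.92 ± 0.12. The beta-tubulin genes TUB7 (0.46 ± 0.14) and TUB9 (0.4 ± 0.12) were the 2 of 5 called, both higher and neither without the block. Of 9 VPS genes of vacuolar sorting 2 were lower, VPS60.1 (-0.86 ± 0.17) and VPS2.2 (-0.47 ± 0.13), 1 of them without the block, and none was higher. ATG3, the enzyme that conjugates ATG8, was lower in the light by a change of -0.43 ± 0.1 (limma adjusted p = 0.0121, 0.259 without the block), with 8.35, 8.88 and 8.3 in the light, against 8.69, 9.32 and 8.82 in the dark.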
